A study of Mus musculus with 28 samples.

Results

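The LPS response of mouse bone marrow-derived macrophages was compared between cells primed with IL-4 and cells primed with IFN-γ. The quantity compared was a difference of differences, the LPS change after IL-4 (IL-4 with LPS minus IL-4 alone, 4 arrays in each group) minus the LPS change after IFN-γ (IFN-γ with LPS minus IFN-γ alone, 3 arrays in each group). The arrays were taken by the treatments in the sample titles and no measured value was used to choose them; they are 14 of the 28 arrays of the series. The other 14 arrays hold 7 untreated samples and 7 samples given LPS without priming, and were used for the unprimed LPS change and for the common estimate of spread. Every gene measured was compared, and 22445 genes could be tested.

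All 4 groups were macrophages grown from C57BL6/J bone marrow in medium with 200 ng/ml CSF1, the growth factor that drives marrow progenitors to become macrophages. The mice were 8 to 12 weeks old and the marrow of several animals was pooled, from 2 males and 1 female per the labels, so an array does not stand for one animal. On day 7 the cells received IL-4 at 10 ng/ml or IFN-γ at 100 U/ml for 18 h, and the LPS groups received LPS at 10 ng/ml for the last 4 h with the cytokine still present. The LPS change after a cytokine is therefore a change in its continued presence. Independent experiments carry letters: the IL-4 groups come from experiments A, B, C and G, and the IFN-γ groups from experiments E, F and G. Experiment G is the only one that holds all 4 groups, so priming and experiment cannot be told apart outside it, whereas each LPS change lies within experiments.

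IL-4 acts through its receptor and the transcription factor STAT6 and drives alternative activation, a state known for arginase 1, resistin-like and chitinase-like proteins and the chemokines that bind CCR4 and CCR3. IFN-γ acts through JAK kinases and gamma-activated sites (GAS) in promoters and induces IRF1, guanylate-binding proteins and the CXCR3 chemokines. LPS is sensed by TLR4 with CD14 and MD-2 and signals through MyD88 to NF-κB and through TRIF to IRF3, and IRF3 induces interferon-β, which in turn drives interferon-stimulated genes through interferon-stimulated response elements (ISRE). Prior IFN-γ is known to prime macrophages for the response to LPS.

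Levels were read on 1-colour 44K expression arrays. A level below is the log2 processed intensity of a gene's brightest probe minus the array's 75th percentile, so 0 is the 75th percentile of the array and 1 unit is 2-fold. Levels are given in the order of experiments A, B, C and G for IL-4 and E, F and G for IFN-γ, first without LPS and then with it, and a difference without further words is the LPS change after IL-4 minus that after IFN-γ. On the 14 arrays the 75th percentile was an intensity of 582 to 1618, and between 60.1% and 72.2% of the spots gave a signal well above background. Within each group, correlations between arrays ran from 0.957 to 0.991 over the tested genes with a value on every array. The 10 macrophage markers were well above background on every array of every group. The summed linear level, in units of the 75th percentile, was 541 to 1780 per array for the macrophage list and at most 69.9 for the fibroblast and stroma list, 68.0 for dendritic cells, 48.6 for neutrophils, 44.7 for endothelium, 7.21 for B cells and 3.90 for T cells. In every group 1 of the 7 B cell markers was well above background on no array. Several sums moved with the comparison. The B cell sum, mostly Cd79b, was 1.31 to 2.69 with IL-4, 3.26 to 7.21 with IL-4 and LPS, 1.33 to 1.68 with IFN-γ and 0.776 to 0.939 with IFN-γ and LPS. In the same order the T cell sum was 0.538 to 0.857, 1.17 to 3.90, 0.991 to 1.49 and 1.01 to 1.41, and the fibroblast and stroma sum was 29.4 to 36.9, 59.8 to 69.9, 31.5 to 32.7 and 39.2 to 59.5. The endothelial sum was 25.2 to 44.7 with IL-4 and 17.2 to 23.6 with IL-4 and LPS, and 13.9 to 23.4 over the IFN-γ groups. The dendritic cell sum was 24.5 to 68.0 in the IL-4 groups against 5.89 to 18.1 in the IFN-γ groups. Over all the marker lists 5 genes were called in the difference of differences, Cd14 and Fcgr1 of macrophages, Lck, Cd79b and Kdr, all with a positive difference. The part of these markers in the results was not tested. In whole cultures, fewer cells of a type and less RNA per cell cannot be told apart.

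LPS moved gene expression further after IL-4 than after IFN-γ for most of the genes whose LPS change differed between the primings. Of 22445 genes, 1212 (5.40%) passed limma's two-sided moderated test of the difference of differences at an adjusted p under 0.05. Of these, 798 (3.56%) had a higher LPS change after IL-4, which is a larger rise or a smaller fall, and 414 (1.84%) had a lower one. The difference was at least 2-fold for 757 and 394 of them. At an unadjusted p under 0.05, 3155 genes passed. The number of calls fell to 733 without experiment E, to 778 without experiment F and to 776 without experiments A and B. With another background correction (normexp) it was 466, of which 85.0% were higher after IL-4 against 65.8% here. That correction moved the median difference over all genes from 0.00 to -0.84.

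Taken alone, LPS raised 3357 genes (15.0%) and lowered 3644 (16.2%) after IL-4, or 7001 (31.2%) of 22446. After IFN-γ it raised 1260 (5.61%) and lowered 1398 (6.23%), or 2658 (11.8%) of 22445. These counts rest on 4 arrays a group after IL-4 and 3 after IFN-γ, so their sizes were not compared. The IFN-γ count was 1397 without experiment F, 1514 without experiment E, 1718 without the IFN-γ with LPS array of E and 1748 without the IFN-γ array of G, and the IL-4 count was 4526 without experiments A and B. In unprimed cells LPS raised 4674 genes (20.8%) and lowered 4826 (21.5%). For 1189 of the 1212 called genes every experiment's LPS change after IL-4 lay on one side of every experiment's change after IFN-γ, a separation shown by 4362 (19.4%) of 22446 genes. In experiment G alone 1203 of the 1212 differences had the same sign. The test that chose these genes used the same arrays, experiment G included, so neither the separation nor the sign is a separate check.

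**Figure D1:**
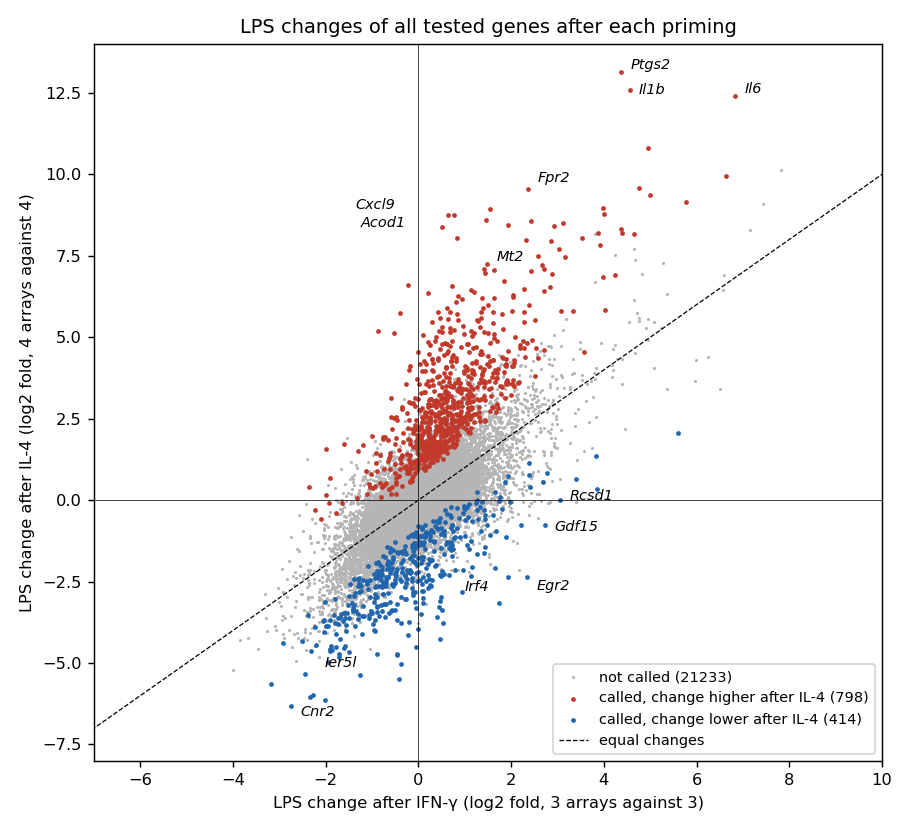
LPS change after IFN-γ (x axis, log2) against LPS change after IL-4 (y axis, log2) for every gene tested, each a point. The 798 genes with a higher LPS change after IL-4 are red, the 414 with a lower one blue and the 21233 others grey; on the dashed line both changes are equal, and the red points reach much farther from it than the blue.

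Among the 798 genes with a higher LPS change after IL-4, 506 (63.4%) rose with LPS after IL-4 and were not called after IFN-γ, and 262 (32.8%) rose after both. Another 4 rose after IL-4 and fell after IFN-γ, 18 fell after IFN-γ alone and 8 were called in neither LPS change. Their median LPS change was 2.63 after IL-4, 0.55 after IFN-γ and 2.15 in unprimed cells, where 751 of them (94.1%) rose. IL-4 and IFN-γ differed in 6260 genes before LPS (27.9% of those tested) and in 5736 after it (25.6%), counts that were 5124 and 4394 on the 14 arrays alone and 3553 and 2295 with the experiment letter as a block on those arrays. The 798 stood at a median of -1.95 (IL-4 minus IFN-γ) before LPS and -0.03 after it. Of them, 453 (56.8%) were called before LPS and not after, 169 (21.2%) kept a narrower gap of the same sign, 117 (14.7%) were called only after LPS and 44 (5.51%) were called both times with opposite signs. Before LPS the median of these genes against untreated cells was -0.60 with IL-4 and 1.24 with IFN-γ.

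Among the 414 genes with a lower LPS change after IL-4, 256 (61.8%) fell with LPS after IL-4 and were not called after IFN-γ, 99 (23.9%) fell after both, 37 (8.94%) rose only after IFN-γ and 12 (2.90%) fell after IL-4 and rose after IFN-γ. Another 6 rose after both, and 4 were called in neither. Their median LPS change was -2.20 after IL-4, -0.17 after IFN-γ and -1.60 in unprimed cells, where 329 (79.5%) fell. IL-4 minus IFN-γ stood at a median of 0.87 before LPS and -0.76 after it. Of these genes 158 (38.2%) were called only after LPS and 153 (37.0%) only before it, and 39 crossed from a called difference of one sign to a called one of the other. The classes use the same arrays as the calls, so none of these shares was tested.

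**Figure D2:**
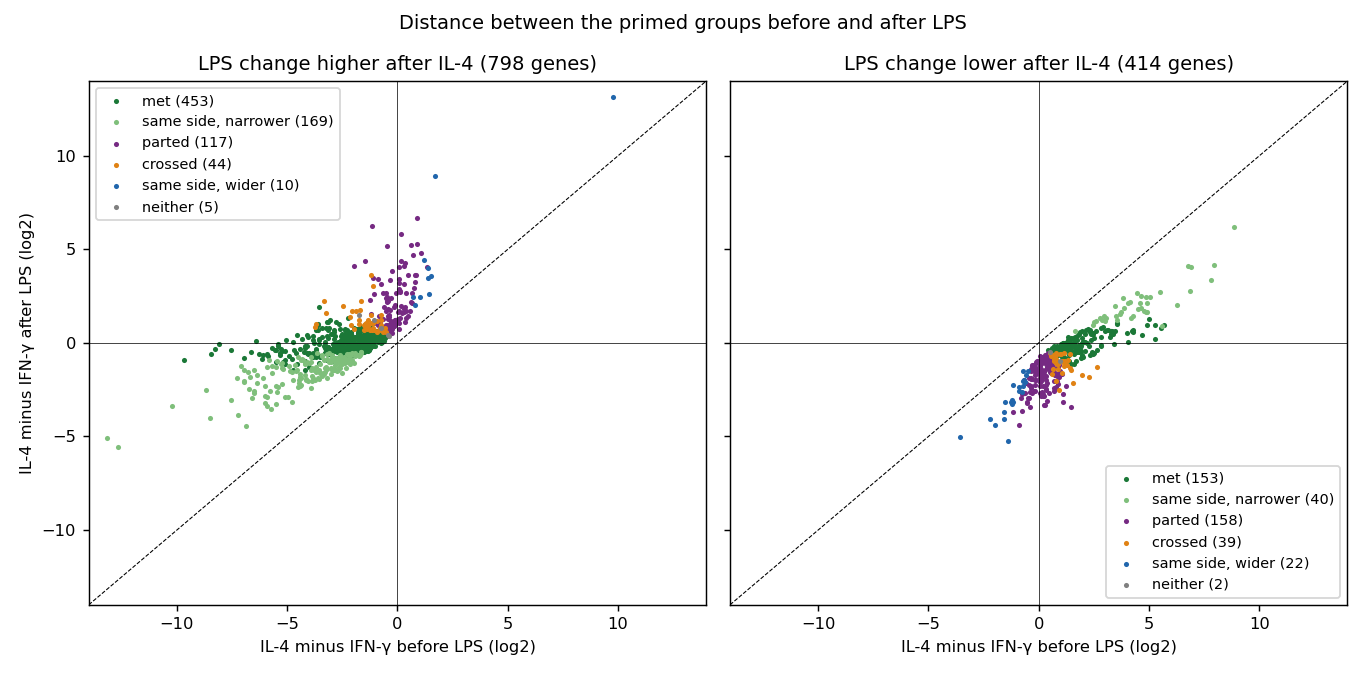
Difference between IL-4 and IFN-γ (log2) without LPS (x axis) and with LPS (y axis) for the called genes, each a point, coloured by whether that difference was called before LPS, after LPS, both times or neither. Left, the 798 genes with a higher LPS change after IL-4, whose median was -1.95 before and -0.03 after; right, the 414 genes with a lower one, whose median was 0.87 before and -0.76 after.

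Among the largest positive differences were those of the CXCR3 ligands, the itaconate enzyme, interleukin 1β and cyclooxygenase 2. Cxcl9 encodes a chemokine for activated T cells that IFN-γ is known to induce. Its level with IL-4 was -5.75, -5.37, -6.00 and -7.03 in experiments A, B, C and G, with only 1 of the 4 arrays well above background, and 3.10, 1.57, 4.57 and 1.58 with IL-4 and LPS. With IFN-γ it was 7.27, 7.25 and 6.94 in experiments E, F and G, and 7.77, 8.17 and 7.42 with IFN-γ and LPS. Every IFN-γ array, with or without LPS, was above every IL-4 array, and LPS brought the IL-4 arrays only part of the way. The LPS change was 8.74 ± 0.55 (SE) after IL-4 and 0.63 ± 0.63 (SE) after IFN-γ, a difference of 8.11 ± 0.84 (SE) (adjusted p = 3.05e-07), or 5.08 with normexp (adjusted p = 0.0045). With LPS, IL-4 cells still lay at -5.08 against IFN-γ cells.

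Cxcl10, a second ligand of the same receptor, came close to its IFN-γ level once LPS was added to IL-4. It stood at 0.21, -0.15, -1.53 and 0.33 with IL-4 and 8.26, 7.63, 8.05 and 8.42 with IL-4 and LPS. With IFN-γ alone it already stood at 7.91, 8.06 and 8.56, and with LPS at 8.55, 8.66 and 8.87. The IL-4 with LPS arrays overlapped the IFN-γ arrays without LPS and lay just below those with LPS. The difference was 7.86 ± 0.42 (SE) (adjusted p = 6.61e-12), and after LPS the primings lay -0.60 apart (adjusted p = 0.145). Cxcl11, the third ligand, was not well above background on any IL-4 array and reached 1.90, -0.38, 1.37 and 0.88 with LPS, at least 105-fold higher. With IFN-γ it was 5.65, 5.06 and 4.41 and with LPS 7.06, 6.62 and 5.83. Its difference was 7.13 ± 0.59 (SE), a call that normexp ended (2.64, adjusted p = 0.101).

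Acod1 makes itaconate from the citrate cycle intermediate aconitate. Its level was 0.11, -0.52, -0.40 and 0.22 with IL-4 and 8.45, 8.52, 8.54 and 8.85 with IL-4 and LPS. With IFN-γ it was 7.92, 8.03 and 8.42 without LPS and 8.84, 8.87 and 8.96 with it. IFN-γ alone thus held Acod1 close to the level that LPS gave after IL-4. The LPS change was 8.74 ± 0.22 (SE) after IL-4 and 0.76 ± 0.25 (SE) after IFN-γ (adjusted p = 0.0491), a difference of 7.97 ± 0.33 (SE) (adjusted p = 4.54e-14). The brightest Acod1 spot was at 71.1% of the scanner's saturation value, and no array was saturated for it.

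Il1b, the fever-inducing cytokine released through inflammasomes, was at -6.68, -5.21, -4.28 and -5.93 with IL-4, where 3 of 4 arrays were well above background, and at 7.18, 6.70, 7.42 and 6.93 with IL-4 and LPS. IFN-γ alone gave 4.30, 1.75 and 1.64, and with LPS 7.63, 7.38 and 6.33. LPS took both primings to overlapping levels from very different starts. The LPS change was 12.58 after IL-4 and 4.55 after IFN-γ, a difference of 8.03 ± 0.91 (SE) (adjusted p = 1.26e-06), and the gap after LPS was -0.06 (adjusted p = 0.952). Ptgs2, the inducible cyclooxygenase of prostaglandin synthesis, was well above background on no IL-4 array and at 5.76, 6.06, 6.44 and 5.58 with LPS, at least 3390-fold higher. Under IFN-γ the level was 4.40, 2.51 and 0.65, and with LPS 7.39, 7.17 and 6.12. Its difference of 8.76 ± 0.80 (SE) (adjusted p = 5.57e-08) takes its start after IL-4 from background values, and was 4.46 with normexp (adjusted p = 0.024). Ptges, the synthase downstream of it, differed by 2.39 (0.99, adjusted p = 0.425 with normexp). Ptgs2 and Ptges were the only called genes of 15 prostanoid and leukotriene enzymes, 13.3% higher beside 3.56% of all genes.

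**Figure D3:**
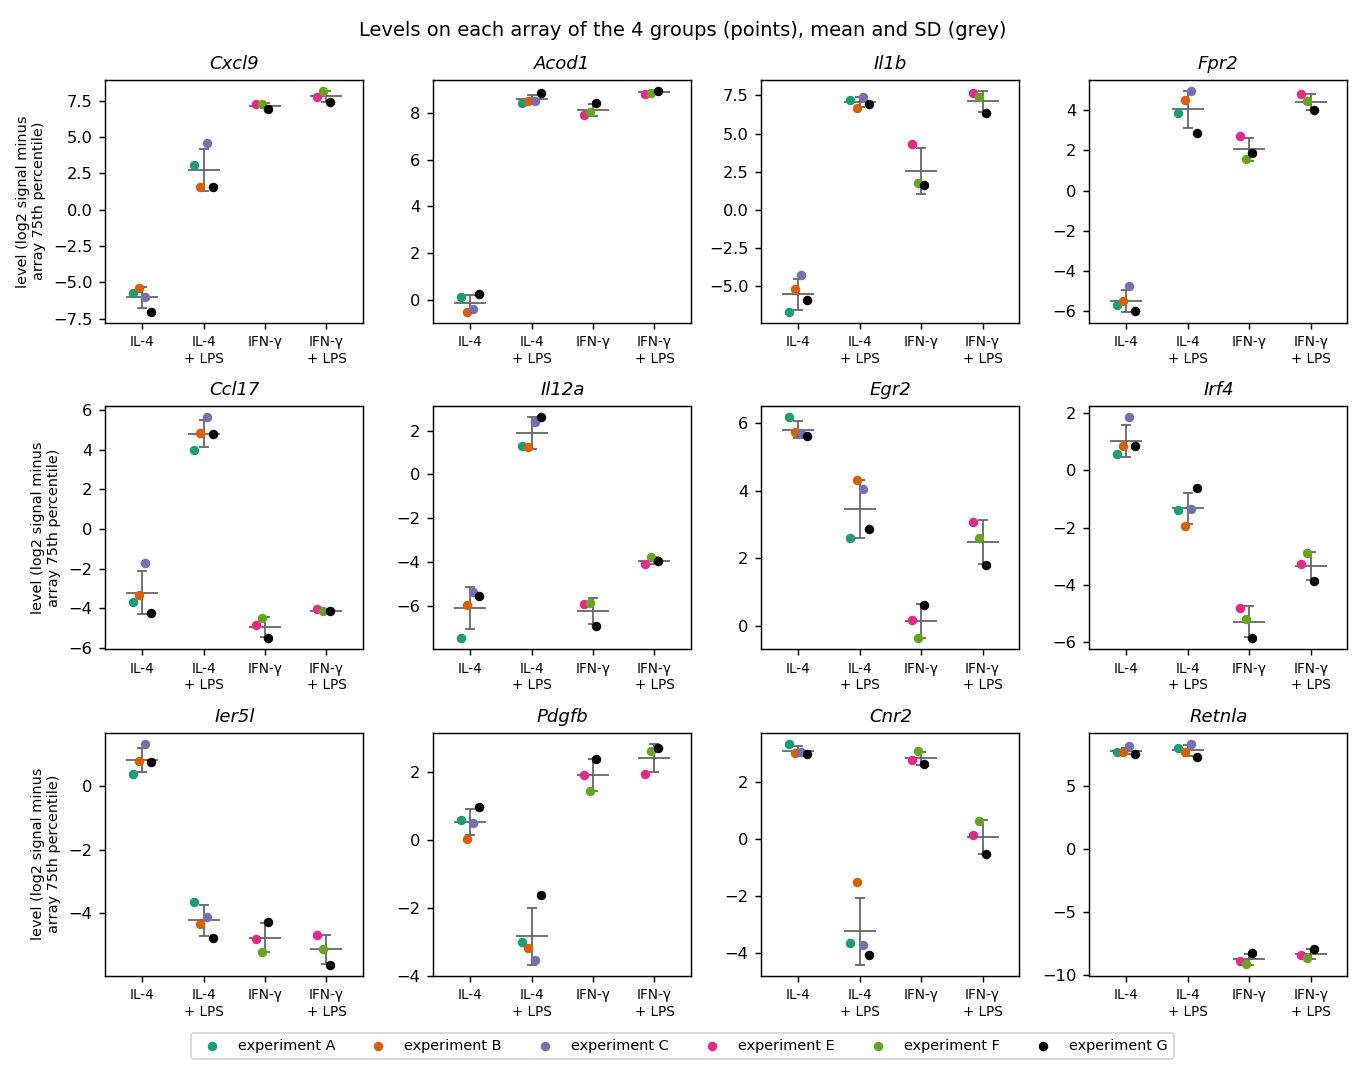
Levels (log2 intensity relative to the array's 75th percentile, y axis) of 12 genes in the 4 groups (x axis), each point 1 array coloured by experiment, with the group mean and SD in grey. Cxcl9, Acod1, Il1b and Fpr2 rise steeply after IL-4 from a low start, Ccl17 and Il12a end higher after IL-4 with LPS than after IFN-γ with LPS, Egr2 and Irf4 move in opposite directions, and the Retnla arrays with IL-4 overlap with and without LPS.

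The formyl peptide receptors, which guide phagocytes to bacterial products, followed the same course. Fpr2 was at -5.72, -5.52, -4.76 and -6.01 with IL-4 and 3.87, 4.52, 4.96 and 2.85 with IL-4 and LPS, against 2.70, 1.58 and 1.88 and 4.79, 4.45 and 4.01 with IFN-γ. Its LPS change was 9.55 after IL-4 and 2.36 after IFN-γ, and the difference 7.19 ± 0.61 (SE) (adjusted p = 1.31e-08), or 4.56 with normexp. The medium-chain fatty acid receptor Gpr84 (5.08; 2.76 with normexp), Ccrl2 (4.22), Fpr1 (4.52; 2.48, adjusted p = 0.0578 with normexp), P2ry14 (1.63) and Ptafr (1.31) were also called higher, and the chemokine receptor Cxcr4 lower. These make 7 of 20 chemoattractant receptors, beside 5.40% of all genes, and the median difference of the list was 0.70.

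The matrix protease Mmp14 and the early activation antigen Cd69 were among the genes with the largest differences. Mmp14 was at -2.81, -3.53, -2.20 and -2.91 with IL-4 and 4.79, 6.34, 6.07 and 5.16 with IL-4 and LPS, and at 3.27, 3.14 and 4.19 and 5.12, 5.58 and 5.72 with IFN-γ. The difference was 6.51 ± 0.57 (SE) (adjusted p = 2.31e-08). Cd69 was at -3.41, -2.94, -3.92 and -3.53 with IL-4 and 5.62, 4.17, 5.34 and 5.39 with IL-4 and LPS, and at 3.56, 3.83 and 3.18 and 5.65, 6.25 and 5.94 with IFN-γ. For both genes the IL-4 arrays without LPS lay below all others. With LPS the primings overlapped for Mmp14, and for Cd69 the IL-4 arrays lay just below the IFN-γ arrays. The Cd69 difference was 6.15 ± 0.54 (SE) (adjusted p = 2.31e-08). The protease inhibitor Serpina3f differed by 5.84 ± 0.65 (SE) and the chloride channel family member Clic5 by 6.15 ± 0.65 (SE). Clic5 was well above background on 1 of 4 IL-4 arrays, was at -0.11, 1.23, 0.97 and -1.29 with IL-4 and LPS, and stayed below the IFN-γ arrays. Its difference was 3.42 with normexp (adjusted p = 0.0143), and of its other probes one gave 6.17 and another 0.39 (unadjusted p = 0.705).

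Interferon-inducible genes were the groups in which nearly every member was called. All 15 measured interferon-inducible GTPases, which attack the vacuoles of intracellular pathogens, had a higher LPS change after IL-4, where 3.56% of all genes did. Their median difference was 4.06, with a median LPS change of 4.73 after IL-4, 0.51 after IFN-γ and 3.69 in unprimed cells, and 2 of the 15 rose with LPS after IFN-γ. Before LPS their median was -5.22 (IL-4 minus IFN-γ) and after it -0.92. Gbp2b was at -7.15, -5.74, -5.17 and -8.52 with IL-4, well above background on 1 of 4 arrays, and at 0.13, -0.24, 1.09 and -1.14 with IL-4 and LPS. In IFN-γ cells it stood at 4.01, 3.39 and 3.35, and with LPS at 3.81, 3.50 and 2.76. Its IL-4 arrays stayed below the IFN-γ arrays, and its difference of 6.84 ± 1.01 (SE) had an adjusted p of 5.33e-05 (3.44, adjusted p = 0.0512 with normexp). Gbp5 was at -0.89, -0.73, -0.77 and -2.04 with IL-4 and 6.10, 5.65, 6.36 and 5.81 with IL-4 and LPS, and at 5.18, 5.06 and 5.21 and 6.83, 6.42 and 6.45 with IFN-γ, a difference of 5.67 ± 0.45 (SE) (adjusted p = 6.55e-09). Iigp1 (5.19) and Gbp2 (5.14 ± 0.51 (SE)) were next, and the brightest Gbp2 spot was at 72.7% of saturation.

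The antiviral genes driven by type I interferon gave 33 of 34 members with a higher LPS change after IL-4, with a median difference of 2.72 and a median LPS change of 3.35 after IL-4, 0.62 after IFN-γ and 2.35 in unprimed cells. Rsad2 (viperin), which blocks viral replication, was at 2.40, 2.35, 0.94 and 1.33 with IL-4 and 8.23, 7.86, 7.97 and 8.08 with IL-4 and LPS. The IFN-γ arrays read 7.42, 7.64 and 7.28, and with LPS 8.26, 8.32 and 8.30. With LPS the IL-4 arrays rose above every array with IFN-γ alone and lay just below those with IFN-γ and LPS. The difference was 5.43 ± 0.37 (SE) (adjusted p = 8.37e-10), and it was 5.32 for Cmpk2, 5.26 for Ifit2 and 5.23 for Ifit1. The member not called was the ubiquitin ligase Trim25 (0.51, adjusted p = 0.614). It was called with a gene's probes averaged (0.92, adjusted p = 0.026) and with array weights (0.64, 0.0445), and its other probe gave 1.34 (unadjusted p = 9.85e-06).

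Regulators of these genes were called in part. Irf1, a transcription factor induced early by IFN-γ, rose by 2.67 with LPS after IL-4 and was at 0.67 after IFN-γ (adjusted p = 0.114), a difference of 2.00 ± 0.35 (SE) (adjusted p = 0.000496). Batf2 (3.02), Irf7 (2.31) and Stat2 (2.08) were also higher. Socs3, a feedback inhibitor of cytokine receptors, was at -0.83, -1.17, -1.31 and -0.43 with IL-4 and 7.85, 7.68, 7.97 and 7.92 with IL-4 and LPS, and at 5.03, 4.80 and 3.34 and 8.48, 8.44 and 8.27 with IFN-γ. Socs3 differed by 4.79 ± 0.51 (SE) (adjusted p = 4.86e-07). Socs1, the inhibitor that IFN-γ itself induces, differed by 0.63 with a 95% interval from -0.15 to 1.41, and Ciita, the master regulator of MHC class II, by -0.08 (from -1.49 to 1.33); neither was called.

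Promoter sequence is printed for 6 genes on which the comparison turns, 4 of the most strongly higher genes of the interferon and metabolic groups and 2 of the 12 lower genes that fell after IL-4 and rose after IFN-γ. The sequences are the 250 bases before the transcription start in RefSeq on GRCm38.p6, 5′ to 3′ in the direction of the gene, with capitals on matches to any of 4 motifs. The motifs, searched on both strands, were GAS (TTCNNNGAA), a STAT6 site (TTCNNNNGAA), the ISRE core (GAAANNGAA) and the NF-κB consensus. The intervals are chr5:92328080-92328329 (minus strand) for Cxcl9, chr5:92348890-92349139 (minus) for Cxcl10, chr14:103046762-103047011 (plus) for Acod1, chr3:142496684-142496933 (plus) for Gbp5, chr10:67535249-67535498 (plus) for Egr2 and chr13:30748983-30749232 (plus) for Irf4.
Cxcl9: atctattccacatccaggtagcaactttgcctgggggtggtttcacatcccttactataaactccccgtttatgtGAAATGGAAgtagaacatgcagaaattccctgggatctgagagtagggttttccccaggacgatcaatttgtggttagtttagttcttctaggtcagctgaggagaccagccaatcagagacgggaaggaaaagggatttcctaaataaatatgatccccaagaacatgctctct
Cxcl10: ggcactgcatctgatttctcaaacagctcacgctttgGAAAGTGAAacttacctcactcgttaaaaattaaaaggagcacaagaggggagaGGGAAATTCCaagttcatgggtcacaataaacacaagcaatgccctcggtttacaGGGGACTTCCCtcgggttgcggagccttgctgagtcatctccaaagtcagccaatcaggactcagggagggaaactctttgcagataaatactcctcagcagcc
Acod1: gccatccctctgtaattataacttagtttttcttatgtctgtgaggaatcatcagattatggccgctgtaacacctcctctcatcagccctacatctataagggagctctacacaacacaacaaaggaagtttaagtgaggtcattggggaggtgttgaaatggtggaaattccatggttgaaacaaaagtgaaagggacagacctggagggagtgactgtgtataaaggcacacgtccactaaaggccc
Gbp5: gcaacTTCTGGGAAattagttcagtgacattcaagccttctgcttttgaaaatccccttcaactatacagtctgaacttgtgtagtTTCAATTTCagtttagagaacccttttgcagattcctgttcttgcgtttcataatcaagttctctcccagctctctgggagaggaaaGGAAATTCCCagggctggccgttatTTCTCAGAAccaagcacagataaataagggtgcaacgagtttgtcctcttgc
Egr2: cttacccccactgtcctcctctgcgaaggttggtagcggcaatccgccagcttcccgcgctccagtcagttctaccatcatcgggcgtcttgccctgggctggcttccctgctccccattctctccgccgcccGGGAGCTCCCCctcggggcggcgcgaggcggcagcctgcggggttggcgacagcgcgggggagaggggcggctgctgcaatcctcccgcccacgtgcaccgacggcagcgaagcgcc
Irf4: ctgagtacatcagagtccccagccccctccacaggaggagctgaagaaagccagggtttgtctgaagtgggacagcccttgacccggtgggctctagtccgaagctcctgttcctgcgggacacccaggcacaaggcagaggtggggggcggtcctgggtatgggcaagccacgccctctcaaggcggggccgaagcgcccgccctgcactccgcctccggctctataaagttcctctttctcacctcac
In Cxcl9 the capitals are an ISRE core, at -175 to -167 from the start. Cxcl10 holds an ISRE core at -213 to -205 and NF-κB matches at -159 to -150 and at -104 to -94, the latter as a pair that overlap each other. Gbp5 holds GAS at -245 to -237 and -52 to -44, an ISRE core on the opposite strand at -164 to -156 and an NF-κB match at -77 to -68. Egr2 holds overlapping NF-κB matches between -117 and -107, and Acod1 and Irf4 hold none of the 4 motifs in these windows. No match of one motif overlaps a match of another in these 6 windows.

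An ISRE core was found in 14.7% of the 571 higher genes with a promoter in the table, in 6.54% of the 306 lower genes, in 6.63% of the 13549 genes tested that have one and in 7.16% of the promoters of all 27025 genes in the table. An NF-κB match was found in 11.7% of the higher genes, 7.52% of the lower, 8.26% of those tested and 7.01% of all. GAS was found in 7.01%, 5.56%, 6.38% and 7.18% of the same sets, and the STAT6 site in 5.43%, 3.92%, 5.00% and 5.86%. These are matches of letters, a description with no test.

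Inflammatory cytokines were called higher for 13 of 25 members, beside 3.56% of all genes, and lower for none. Their median difference was 2.47, with a median LPS change of 4.67 after IL-4, 2.83 after IFN-γ and 3.81 in unprimed cells. Il6 was at -6.90, -4.75, -5.04 and -7.38 with IL-4, well above background on 2 of 4 arrays, and at 6.49, 5.38, 7.20 and 6.48 with IL-4 and LPS. IFN-γ alone gave -1.0, -3.27 and -3.75, and with LPS 4.44, 4.63 and 3.40. Every IL-4 with LPS array exceeded every IFN-γ with LPS array. The difference was 5.57 ± 0.96 (SE) (adjusted p = 0.0004), and the gap after LPS 2.23 (adjusted p = 0.0169). With normexp the difference was 3.01 (adjusted p = 0.261).

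The IL-12 subunit Il12a parted with LPS from dim starts. Not every array without LPS was well above background, so an equal start was not shown. It was at -7.49, -5.96, -5.39 and -5.58 with IL-4 (1 of 4 arrays well above background) and 1.31, 1.24, 2.42 and 2.61 with IL-4 and LPS. It was at -5.94, -5.89 and -6.94 with IFN-γ (2 of 3) and -4.09, -3.77 and -3.96 with IFN-γ and LPS. The LPS groups did not overlap and the groups without LPS did. The difference was 5.68 ± 0.87 (SE) (adjusted p = 8.36e-05), with 0.15 before LPS (adjusted p = 0.867) and 5.84 after it. With normexp it was 2.72 (adjusted p = 0.15). The shared subunit Il12b, well above background on no IL-4 array, rose at least 165-fold to 1.64, 0.38, 2.93 and 1.48 after IL-4, against -2.66, -3.96 and -4.57 and 0.46, 1.51 and 1.81 with IFN-γ. Its call (4.38, adjusted p = 0.00136) was lost with normexp (0.58, adjusted p = 0.658) and with dim values raised to the lowest signal well above background (2.38, adjusted p = 0.0946).

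Tnf, the early cytokine of the LPS response, was at -1.01, -1.61, -2.48 and -0.93 with IL-4 and 6.64, 6.04, 6.73 and 7.33 with IL-4 and LPS, and at 3.75, 3.83 and 3.48 and 8.13, 8.15 and 7.98 with IFN-γ. Its arrays with IL-4 and LPS all lay below those with IFN-γ and LPS. The LPS change was 8.19 after IL-4 and 4.40 after IFN-γ, a difference of 3.79 ± 0.62 (SE) (adjusted p = 0.000187) that left -1.40 after LPS (adjusted p = 0.0185). Ifnb1 (interferon-β), well above background on no IL-4 array, rose at least 93.2-fold to 0.89, -0.76, 1.03 and 1.95 after IL-4 and stood at 1.40, -0.48 and -0.19 and 3.96, 2.49 and 1.99 with IFN-γ. Its difference was 4.92 ± 0.95 (SE) (adjusted p = 0.00139), or 1.31 with normexp (adjusted p = 0.425). The IL-10 family cytokine Il19 rose at least 154-fold after IL-4, with a difference of 7.40 ± 0.97 (SE) (2.89, adjusted p = 0.154 with normexp).

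The anti-inflammatory cytokine Il10 was not called in the difference. It was at -2.51, -2.50, -2.97 and -2.53 with IL-4 and 1.83, 1.56, 1.68 and 0.62 with IL-4 and LPS, and at -2.63, -3.11 and -1.92 and 2.89, 2.64 and 2.06 with IFN-γ. It rose with LPS after both, by 4.05 and 5.08, and the difference of -1.03 was not called (adjusted p = 0.225, 95% interval from -1.91 to -0.15). With array weights Il10 was called (-1.35, adjusted p = 0.00167). The IL-1 receptor antagonist Il1rn was at -1.45, -0.71, -0.86 and -1.24 with IL-4 and 4.98, 5.86, 6.23 and 3.86 with IL-4 and LPS, and at 4.74, 4.80 and 3.85 and 6.58, 7.05 and 5.90 with IFN-γ, a difference of 4.25 ± 0.59 (SE) (adjusted p = 2.62e-05). Of 14 anti-inflammatory cytokines and decoys, Il1rn and Il18bp (2.15) were higher and Pdgfb and the IL-33 receptor Il1rl1 (-2.87) lower. Over all genes 3.56% were higher and 1.84% lower. The Il1rl1 call was lost on the 14 arrays alone (adjusted p = 0.16), with the experiment letter as a block on them (0.0778) and with a gene's probes averaged (-1.60, 0.169), and that of Il18bp without experiments A and B (adjusted p = 0.11) and without E (0.0766).

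Genes of the NF-κB pathway were called higher for 9 of 16 members, where 3.56% of all genes were. The median difference was 1.36, with a median LPS change of 3.65 after IL-4 and 1.91 after IFN-γ. Nfkbiz, an atypical IκB that Il6 induction is known to require, differed by 3.92 ± 0.56 (SE), the inhibitor Nfkbie by 3.11, the subunit Relb by 2.47 and the deubiquitinase Tnfaip3 (A20) by 2.47 ± 0.33 (SE). Tnfaip3 rose after both primings, by 5.81 and 3.34. Of 29 genes of TLR4 recognition and signalling, 8 were called higher, with a median difference of 0.25. Traf1 (3.47), Irak2 (1.77), Cd14 (1.75) and Myd88 (1.57) led them, and with arrays scaled to their median 1 of the 29 was called. Of 20 AP-1, EGR and ATF factors 3 (15.0%) were called higher, Cebpb (1.61), Klf6 (1.18) and Batf (0.97). Of 22 feedback regulators of MAP kinases and RNA decay, the phosphatases Dusp1 (1.67) and Dusp16 (1.46) were called higher (9.09%). None of the 22 was lower, though 4 were with the experiment letter as a block on the 14 arrays. With normexp or median scaling none of Cebpb, Klf6, Batf, Dusp1 and Dusp16 was called. On the 14 arrays alone Batf (adjusted p = 0.103), Dusp1 (0.185), Dusp16 (0.096) and Klf6 (0.0633) were not. With the experiment letter as a block on those arrays Batf (0.0946), Dusp1 (0.0788) and Cebpb (0.0623) were not called. Without experiments A and B, Klf6 alone of the 5 was called.

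Chemokines of the CC family were called higher for 6 of 13 members, where 3.56% of all genes were, with a median difference of 1.83. Ccl17, a CCR4 ligand known as an IL-4 target, was at -3.65, -3.32, -1.68 and -4.21 with IL-4 and 4.00, 4.84, 5.64 and 4.79 with IL-4 and LPS. Under IFN-γ the level was -4.84, -4.47 and -5.50, and with LPS -4.05, -4.15 and -4.15. Only the arrays with both IL-4 and LPS were high, and they stood above all others without overlap. LPS added 8.03 after IL-4 and 0.82 after IFN-γ (adjusted p = 0.477), a difference of 7.21 ± 0.77 (SE) (adjusted p = 4.86e-07). The gap between the primings went from 1.72 before LPS (adjusted p = 0.0185) to 8.94 after it (adjusted p = 1.55e-11). The unprimed LPS change was 3.84.

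Ccl22, the other CCR4 ligand, was well above background on 1 of 4 IL-4 arrays and at 0.50, 0.92, 2.46 and 1.18 with IL-4 and LPS. It was well above background on no IFN-γ array and at -3.19, -3.87 and -3.27 with IFN-γ and LPS. The LPS groups did not overlap, yet the difference of 3.07 ± 1.03 (SE) missed the threshold (adjusted p = 0.0901), which it passed on the 14 arrays alone (adjusted p = 0.0266) and with the experiment letter as a block on them (0.00412), and the difference was 1.79 with normexp (adjusted p = 0.425). Ccl8, a CCR8 ligand in mice, was at 0.36, 2.02, 1.73 and 0.30 with IL-4 and 5.79, 5.68, 5.65 and 4.42 with LPS, and at 2.25, 2.15 and 2.24 and 2.45, 2.66 and 1.88 with IFN-γ, a difference of 4.17 ± 0.58 (SE) (adjusted p = 2.34e-05). Ccl24, the CCR3 ligand eotaxin 2, was at 1.41, 2.25, 3.29 and 1.29 with IL-4 and 5.70, 5.99, 6.67 and 4.16 with LPS and was not well above background on any IFN-γ array, with or without LPS. IL-4 cells were at least 479-fold higher before LPS and at least 4090-fold higher after it. Its LPS change after IFN-γ was therefore not measured, and the difference of 3.40 (adjusted p = 0.0402) rests on background values there. That call was lost with normexp (2.16, adjusted p = 0.425) and in 16 of 21 settings that left out arrays, for example without experiment F (3.03, adjusted p = 0.214). Ccl5 (5.10 ± 0.38 (SE)) and Ccl12 (4.60 ± 0.81 (SE)) were higher as well. Of the 11 CXC chemokines 5 were called, beside 5.40% of all genes. Cxcl3, a neutrophil attractant not well above background on any IL-4 array, rose at least 458-fold with LPS after IL-4 (a difference of 5.86, or 2.98 with normexp, adjusted p = 0.25).

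Surface molecules of T cell help were called higher for 10 of 20 members of the costimulation and coinhibition list, where 3.56% of all genes were. The median LPS change of the list was 3.57 after IL-4 and 1.20 after IFN-γ. Cd69 and Vcam1 (4.38) had the largest differences, followed by Tnfsf4 (3.59) and Cd40 (3.51 ± 0.31 (SE)). With a gene's probes averaged the Vcam1 difference was 2.05 (adjusted p = 0.0824), and with normexp that of Tnfsf4 was 1.97 (adjusted p = 0.145). Cd40, which receives help from T cells, rose by 5.78 after IL-4 and 2.27 after IFN-γ. The ligands of CD28 and PD-1, Cd86 (3.07 ± 0.51 (SE)) and Cd274 (2.48 ± 0.54 (SE)), were also higher. The checkpoint molecule Vsir (-2.13) was the 1 lower member, named after its value was seen. Peptide loading of MHC class I gave 5 higher members of 16, with Tap1 (2.37), Tap2 (2.08), Tapbpl (1.97) and H2-T22 (1.90) leading. For 14 MHC class II presentation genes limma called none, beside 5.40% of all genes, and the median difference was 0.11. At an unadjusted p under 0.05, 1 of them passed, beside 3155 of all 22445 genes. Whether this list differs from all genes was not tested.

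**Figure D4:**
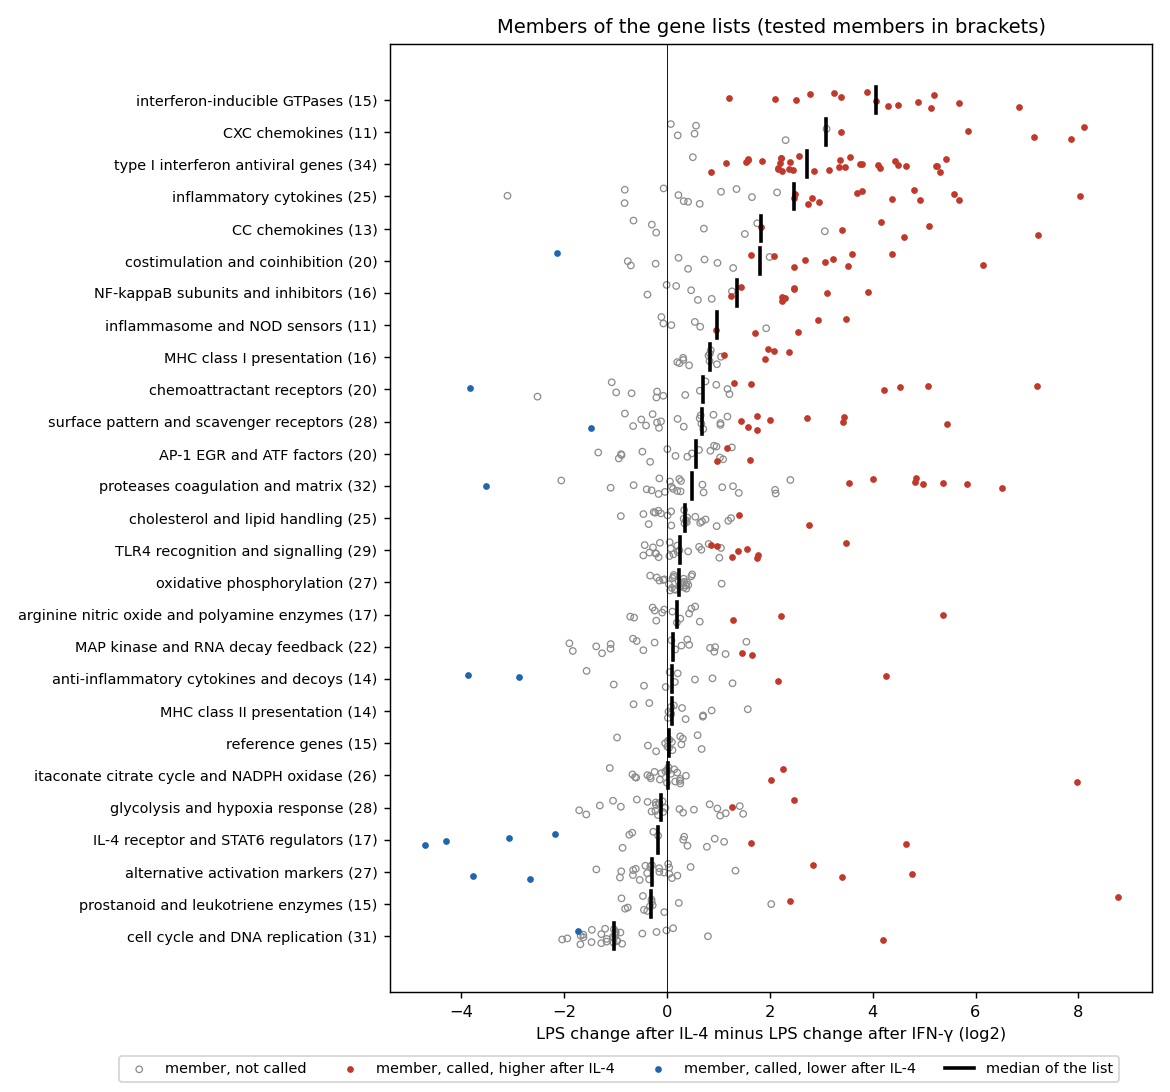
Difference of the LPS changes (IL-4 minus IFN-γ, log2, x axis) for the tested members of 27 gene lists (y axis), each point 1 gene, coloured by call, with a bar at the list's median. The interferon-inducible GTPases and antiviral genes lie almost wholly above 0, with medians of 4.06 and 2.72, and the reference genes lie around 0, with a median of 0.05.

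Sensors and scavenger receptors were called in part, beside 3.56% of all genes called higher and 1.84% lower. Of 28 surface pattern and scavenger receptors 9 were higher, led by the mycobacterial lipid receptor Clec4e (5.44 ± 0.45 (SE)), the double-stranded RNA sensor Tlr3 (3.45), the scavenger receptor Marco (3.43) and Tlr2 (2.72), and 1 was lower, Cd300lf (-1.46), named after its value was seen. Of 11 inflammasome and NOD genes 5 were higher, among them the peptidoglycan sensors Nod2 (3.48) and Nod1 (2.94) and the caspases Casp4 (2.54) and Casp1 (1.72). Of 32 genes of proteases, coagulation and matrix 8 were higher, with Mmp14, Serpina3f, Serpina3g (5.36) and the acute phase protein Saa3 (4.97) first. The plasminogen activator Plat was lower (-3.52), with an LPS change of 2.07 after IL-4 and 5.59 after IFN-γ, and was named after its value was seen.

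The metabolic lists gave 3 called of 17 genes of arginine and nitric oxide, 3 of 26 of itaconate, the citrate cycle and the NADPH oxidase, 2 of 28 of glycolysis and hypoxia, 2 of 25 of cholesterol and lipids and 0 of 27 of oxidative phosphorylation, beside 5.40% of all genes. Nos2, which makes nitric oxide from arginine, was well above background on no IL-4 array and at 0.98, 2.02, 1.68 and 0.04 with IL-4 and LPS, at least 123-fold higher. In IFN-γ cells it stood at 0.94, 0.16 and -1.25, and with LPS at 3.41, 3.58 and 2.21. The arrays with IL-4 and LPS lay below those with IFN-γ and LPS. The difference was 5.37 ± 0.96 (SE) (adjusted p = 0.000602), with -1.89 after LPS (adjusted p = 0.0425), and was lost with normexp (1.16, adjusted p = 0.425). Gch1 (2.21), which makes the cofactor of Nos2, and Ass1 (1.29), which regenerates arginine, were the other called members of 17, and the call of Ass1 was lost with normexp (adjusted p = 0.139) and without experiments A and B (0.115). Of 26 genes of itaconate, the citrate cycle and the NADPH oxidase, Acod1, the mitochondrial superoxide dismutase Sod2 (2.26) and the oxidase subunit Cybb (2.03) were called, with a list median of 0.02. Of 28 glycolysis and hypoxia genes the transporter Slc2a6 (2.48) and P4ha1 (1.26) were called, and of 25 cholesterol and lipid genes Acsl1 (2.76) and Nr1h3 (1.41). Median scaling ended the calls of P4ha1 (adjusted p = 0.306) and Nr1h3 (0.141). For 27 oxidative phosphorylation genes limma called none, and the median difference was 0.23. At an unadjusted p under 0.05, 1 of them passed, beside 3155 of all 22445 genes.

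The hallmarks of alternative activation stood far apart between the primings both without and with LPS. Arg1, which competes with Nos2 for arginine, was at 3.33, 4.58, 3.87 and 5.45 with IL-4 and 4.37, 2.29, 2.95 and 5.21 with IL-4 and LPS, and at -5.24, -4.84 and -3.85 and -5.96, -5.62 and -4.46 with IFN-γ. Its difference was 0.10 with a 95% interval from -1.87 to 2.07, and IL-4 cells stood 8.95 above IFN-γ cells before LPS and 9.05 after it. The resistin-like Retnla was at 7.65, 7.64, 8.10 and 7.52 with IL-4 and 7.97, 7.67, 8.31 and 7.28 with IL-4 and LPS and was not well above background on any IFN-γ array, so IL-4 cells were at least 24300-fold higher without LPS and at least 18500-fold higher with it. The chitinase-like Chil3 was at 5.59, 5.00, 6.58 and 4.69 and 5.24, 5.16, 6.22 and 5.35 with IL-4, and at 0.45, 1.38 and 2.72 and 0.51, 1.77 and 2.21 with IFN-γ (0.05, 95% interval from -1.34 to 1.43). For these genes each group with LPS overlapped its group without.

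Over 27 alternative activation markers the median IL-4 minus IFN-γ was 4.01 before LPS and 3.63 after it, and the median difference of differences -0.29. Of them 3 were higher, the oxysterol enzyme Ch25h (4.76 ± 0.98 (SE)), Ccl24 and the transglutaminase Tgm2 (2.84 ± 0.36 (SE)), and 2 were lower, the water channel Aqp3 (-2.65) and the haemoglobin scavenger receptor Cd163. These are 11.1% and 7.41% of the list, beside 3.56% and 1.84% of all genes. Cd163 was at -1.34, -0.72, -0.78 and -0.93 with IL-4 and -2.92, -4.23, -4.44 and -3.48 with IL-4 and LPS, and was not well above background on any IFN-γ array. IL-4 cells were at least 59.7-fold higher before LPS and at least 6.07-fold higher after it. Its LPS change after IFN-γ was therefore not measured. The difference of -3.77 (adjusted p = 0.00011) rests on background values there and was lost with normexp (-3.09, adjusted p = 0.128).

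Of the 17 regulators of the IL-4 receptor and STAT6 pathway, 4 transcription factors were lower and 2 receptor subunits higher, where 1.84% and 3.56% of all genes were. Egr2, a zinc finger factor known to sustain the IL-4 programme, was at 6.18, 5.75, 5.73 and 5.62 with IL-4 and 2.60, 4.32, 4.07 and 2.87 with IL-4 and LPS. The IFN-γ arrays read 0.17, -0.37 and 0.61, and with LPS 3.07, 2.60 and 1.79. The IL-4 arrays stood far above the IFN-γ arrays without LPS, and the LPS groups overlapped. Egr2 fell by 2.35 after IL-4 and rose by 2.35 after IFN-γ, a difference of -4.70 ± 0.58 (SE) (adjusted p = 5.23e-06), and the gap went from 5.68 to 0.98 (adjusted p = 0.0846). In unprimed cells the LPS change was 0.23.

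Irf4, which acts with STAT6 in alternative activation, also moved in opposite directions. It was at 0.55, 0.85, 1.84 and 0.83 with IL-4 and -1.38, -1.95, -1.36 and -0.62 with IL-4 and LPS, against -4.79, -5.18 and -5.85 and -3.27, -2.87 and -3.85 with IFN-γ. It fell in every IL-4 experiment and rose in every IFN-γ experiment, and the IL-4 arrays stayed above the IFN-γ arrays throughout. The difference was -4.29 ± 0.58 (SE) (adjusted p = 1.91e-05). In unprimed cells LPS changed Irf4 by -2.53, close to its change of -2.35 after IL-4. Klf4, a STAT6 partner, was at 5.80, 5.91, 5.65 and 6.14 with IL-4 and 3.43, 1.99, 2.56 and 2.98 with LPS, and at 5.65, 4.46 and 4.95 and 5.82, 4.56 and 4.47 with IFN-γ. Klf4 fell after IL-4 and stood at -0.07 after IFN-γ (adjusted p = 0.941), a difference of -3.06 ± 0.51 (SE) (adjusted p = 0.000258). The nuclear receptor Pparg was the 4th lower member (-2.18). Il13ra1, which pairs with the IL-4 receptor chain, was at -3.67, -4.79, -4.70 and -4.82 with IL-4 and 0.66, 1.23, 0.84 and -0.62 with LPS, and at 0.99, 0.93 and 0.52 and 1.25, 1.45 and 0.87 with IFN-γ, a difference of 4.64 ± 0.48 (SE) (adjusted p = 3.1e-07), or 2.84 with normexp (adjusted p = 0.00213). The common gamma chain Il2rg was higher too (1.64).

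Other large negative differences belonged to genes that LPS lowered after IL-4. Ier5l, an immediate early response family member, was at 0.39, 0.78, 1.33 and 0.77 with IL-4 and -3.64, -4.35, -4.10 and -4.79 with IL-4 and LPS, and at -4.82, -5.20 and -4.28 and -4.68, -5.11 and -5.61 with IFN-γ. With LPS the IL-4 arrays overlapped the IFN-γ arrays, and the difference was -4.67 ± 0.47 (SE) (adjusted p = 2.59e-07). Gpr183, the oxysterol receptor that positions immune cells, was at 3.38, 3.11, 2.73 and 2.93 with IL-4 and -1.21, -0.37, -0.76 and -2.04 with LPS, and at -0.27, 0.09 and 1.35 and 0.43, 0.11 and -0.02 with IFN-γ. It fell after IL-4, to below every IFN-γ array, and was at -0.22 after IFN-γ (adjusted p = 0.821), and the difference was -3.91 ± 0.50 (SE) (adjusted p = 7.69e-06). Ch25h, above, makes the precursor of its ligand.

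Pdgfb, a growth factor for mesenchymal cells, fell after IL-4 from 0.59, 0.03, 0.49 and 0.98 to -3.01, -3.18, -3.54 and -1.62, and was at 1.89, 1.45 and 2.38 with IFN-γ and 1.93, 2.60 and 2.69 with IFN-γ and LPS. The LPS groups lay far apart. The difference was -3.86 ± 0.58 (SE) (adjusted p = 6.96e-05), and the gap went from -1.38 to -5.25. The kelch protein Enc1 went from 1.93, 2.41, 2.27 and 1.94 to -0.14, -0.91, -0.11 and -0.07 after IL-4 and was at 3.87, 4.20 and 3.12 and 3.81, 4.22 and 3.25 with IFN-γ, a difference of -2.48 ± 0.42 (SE). The LPS change after IFN-γ was not called for either gene (0.50 and 0.03).

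The receptors Cxcr4 and Cnr2 fell with LPS after IL-4 to dim signals. Cxcr4, the receptor of CXCL12, went from -0.06, -0.31, 0.25 and -1.28 to -4.94, -4.39, -5.21 and -5.74 after IL-4 and was at -1.30, -1.50 and -1.49 and -1.57, -1.89 and -3.53 with IFN-γ, a difference of -3.82 ± 0.69 (SE) (adjusted p = 0.000682). Cnr2, the cannabinoid receptor of immune cells, went from 3.33, 3.01, 3.02 and 2.95 to -3.67, -1.50, -3.74 and -4.06 after IL-4 and from 2.74, 3.07 and 2.61 to 0.11, 0.63 and -0.54 after IFN-γ, so it fell after both, with a difference of -3.58 ± 0.83 (SE) (adjusted p = 0.00765). Normexp ended both of these calls, with -2.65 (adjusted p = 0.157) and -2.64 (adjusted p = 0.101). Fam214a (-4.11 ± 0.83 (SE)), with 1 of 4 IL-4 and LPS arrays well above background, was lost with normexp in the same way (-2.71, adjusted p = 0.297).

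Several of the other strongly lower genes lost their calls when arrays were left out. The homeobox gene Msx3 (-4.44 ± 1.20 (SE), adjusted p = 0.0258) lost its call in 12 of the 21 settings that left out arrays (adjusted p = 0.169 without experiment E), the pseudokinase Trib2 (-4.30 ± 1.16 (SE), adjusted p = 0.0246) in 9 of them (0.13 without experiment F) and the acyltransferase Mboat2 (-3.74 ± 0.92 (SE), adjusted p = 0.0134) in 5 (0.161 without experiments A and B), and with a gene's probes averaged Mboat2 gave -2.10 (adjusted p = 0.214). Normexp ended these 3 calls too (adjusted p = 0.0546, 0.305 and 0.18). Of 142 called genes named here or in the same lists and classes, 112 kept the call in every one of those settings and 30 lost it in at least 1. Among them BM939341 moved by over 1.5 times in 1 of those settings, from 2.29 to 1.45 (adjusted p = 0.158) without the IFN-γ with LPS array of experiment E. In experiment G alone, with 1 array a group and no test, differences over 1.5 times smaller than in all experiments were those of Ch25h (2.86), Vcan (2.91), Tap2 (1.32), Irf7 (1.52), Ass1 (0.83), P4ha1 (0.71), Dusp16 (0.95) and Batf (0.59) among the higher genes named here. Among the lower they were those of Cxcr4 (-2.42), Kctd12 (-1.92), Rcsd1 (-1.74), Mboat2 (-1.51), Il1rl1 (-0.83) and Mki67 (-0.72). Arv1 (0.80), Epb41l1 (-0.48) and Ppp1r12b (-1.89), named further below, were also over 1.5 times smaller in experiment G alone. The difference of Irf1 was larger there (3.16).

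**Figure D5:**
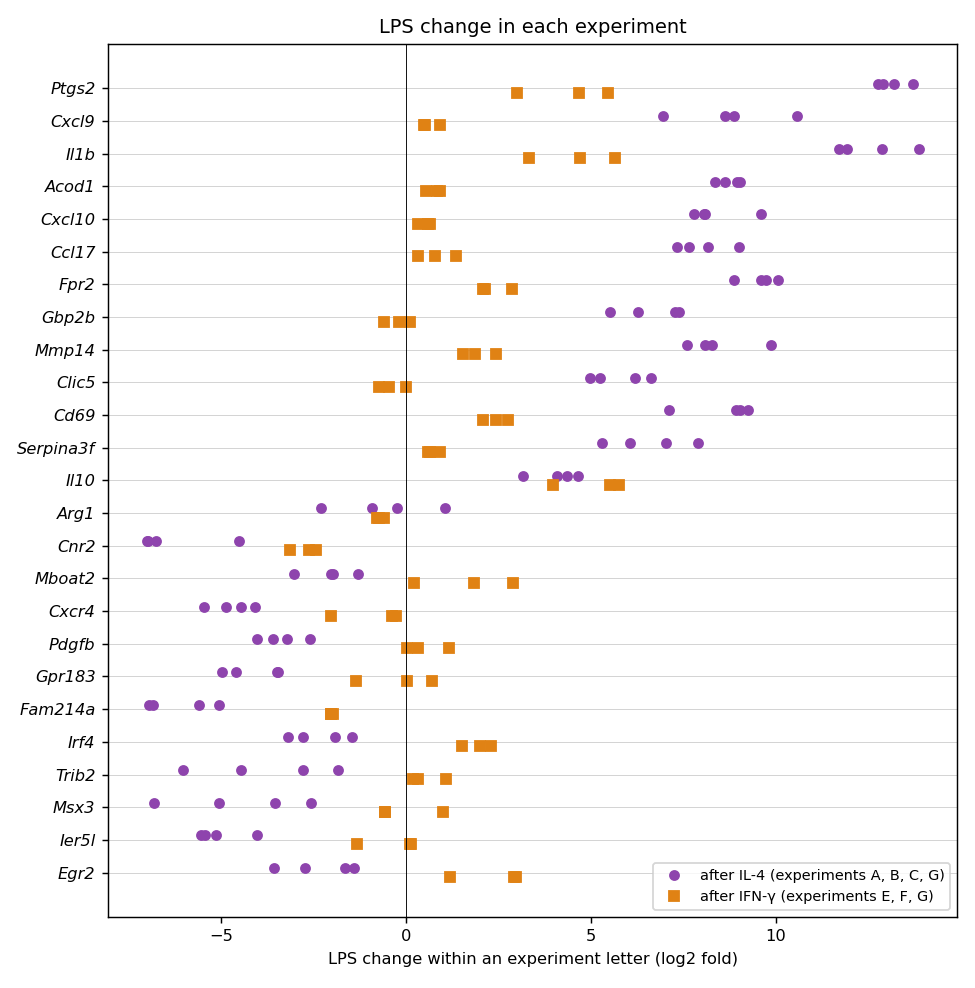
LPS change (log2, x axis) of 25 genes (y axis) in each experiment, as purple circles after IL-4 (A, B, C and G) and orange squares after IFN-γ (E, F and G). The circles and squares of Cxcl9, Acod1 and Ccl17 lie well apart, and Egr2 and Irf4 have their circles below 0 and their squares above it.

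Some genes moved with LPS after IFN-γ and not after IL-4. The stress cytokine Gdf15 was at 2.69, 2.21, 1.03 and 2.28 with IL-4 and 0.99, 2.00, 1.14 and 1.06 with LPS, and at 3.51, 2.65 and 2.65 with IFN-γ and 6.38, 6.25 and 4.39 with LPS. It rose by 2.74 after IFN-γ and was at -0.75 after IL-4 (adjusted p = 0.22), a difference of -3.49 ± 0.67 (SE) (adjusted p = 0.00119). Rcsd1, an actin capping regulator, was at 0.84, 0.34 and 1.47 with IFN-γ and 3.98, 3.85 and 3.98 with LPS, and at 2.87, 3.25, 3.77 and 3.48 and 3.68, 1.81, 3.63 and 4.25 with IL-4. With LPS the IFN-γ arrays lay within the range of the IL-4 with LPS arrays (-3.05 ± 0.64 (SE), adjusted p = 0.00331; adjusted p = 0.0754 with normexp). Kctd12 differed by -2.98 ± 0.56 (SE) in the same way (adjusted p = 0.0549 with normexp).

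In the other direction, Tgfb3, a TGF-β ligand, fell after IFN-γ from 1.59, 0.94 and 0.94 to -0.53, -0.61 and -1.12 and was at -2.87, -2.81, -3.28 and -4.04 and -1.91, -1.98, -2.68 and -3.67 with IL-4, a difference of 2.59 ± 0.51 (SE) (adjusted p = 0.00158; 1.71, adjusted p = 0.265 with normexp). The fucosyltransferase Fut4 fell from -2.40, -1.82 and -1.53 to -4.37, -3.81 and -3.40 after IFN-γ and was at -2.37, -2.27, -2.43 and -2.25 and -2.46, -2.31, -2.49 and -2.43 with IL-4, a difference of 1.85 ± 0.30 (SE) (adjusted p = 0.0002; 0.28, adjusted p = 0.782 with normexp). The B cell receptor component Cd79b was at 0.13, 0.63, 1.11 and 0.26 with IL-4 and 2.30, 1.33, 2.70 and 2.53 with LPS, and at 0.07, 0.10 and 0.58 and -1.25, -1.06 and -0.51 with IFN-γ. It rose after IL-4 and fell after IFN-γ, a difference of 2.87 ± 0.48 (SE) (adjusted p = 0.000267). The B cell marker sum given above is mostly Cd79b itself, so its moves with the groups are not separate from this gene.

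Other genes were highest with IL-4 and LPS together. The metallothionein Mt2 was at -0.85, -0.35, -0.99 and -1.24 with IL-4 and 7.02, 6.34, 6.99 and 5.23 with LPS, and at -1.70, -1.82 and -1.71 and -0.45, -0.15 and -0.17 with IFN-γ. The 4 arrays with IL-4 and LPS stood alone, and the gap between primings went from 0.89 (adjusted p = 0.106) to 6.65, a difference of 5.76 ± 0.57 (SE) (adjusted p = 1.72e-07). The matrix proteoglycan Vcan went from -2.97, -4.38, -4.56 and -3.41 to 2.42, 2.83, 2.96 and 1.29 after IL-4 and was at -1.95, -2.96 and -3.00 and -1.01, -1.59 and -1.21 with IFN-γ (4.84 ± 0.63 (SE)). The Vcan difference was 2.91 with normexp and 2.96 with a gene's probes averaged, and its other 4 probes gave 2.98, 2.43, 1.45 and 3.09. Hdc, which makes histamine, went from -3.03, -1.32, -0.85 and -2.01 to 4.50, 4.78, 5.55 and 4.82 after IL-4 and was at 1.24, 1.43 and 1.63 and 3.34, 3.34 and 3.17 with IFN-γ (4.86 ± 0.51 (SE)). Vcan and Hdc rose after IL-4 and ended above every IFN-γ array, Hdc from a level below them. The BCL-2 related gene Bcl2a1c (4.66 ± 0.38 (SE)) and the BAFF receptor Tnfrsf13c (4.38 ± 0.67 (SE)) ended higher with IL-4 and LPS as well, by 0.99 and 5.26. The Tnfrsf13c difference was 1.96 with normexp (adjusted p = 0.425).

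Cell cycle genes fell with LPS after IL-4 in 23 of 31 cases, where 16.2% of all genes fell, and after IFN-γ in 3 of 31, where 6.23% did. Their median LPS change was -2.11 after IL-4, -1.12 after IFN-γ and -1.75 in unprimed cells, and the median difference was -1.03. In the difference 1 of the 31 (3.23%) was called higher and 1 (3.23%) lower, beside 3.56% and 1.84% of all genes. Ccnd2, a D-type cyclin, was at 0.37, 0.71, -0.51 and 1.69 with IL-4 and 6.03, 5.65, 6.46 and 6.09 with LPS, and at 3.78, 4.34 and 5.04 and 5.36, 5.55 and 6.12 with IFN-γ, and was higher (4.21 ± 0.70 (SE), adjusted p = 0.000249). The proliferation marker Mki67 was lower (-1.72 ± 0.39 (SE), adjusted p = 0.00666), with an LPS change of -0.31 after IL-4 and 1.41 after IFN-γ. Its difference thus came mostly from a higher level with LPS after IFN-γ, unlike the list's median. That call was lost without experiments A and B (-1.49, adjusted p = 0.122), without E (-1.58, 0.0623), without F (-1.40, 0.0913), with normexp (-1.37, 0.296) and with median scaling (-1.74, 0.209).

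For some LPS genes, named because they had the highest p in their lists, the 2 changes were close. Their intervals bound how far the changes could differ. Zfp36, which destabilises cytokine mRNA, rose by 2.67 after IL-4 and 2.58 after IFN-γ (0.09, 95% interval from -0.74 to 0.93). The ribonuclease Zc3h12a was at 2.80 and 2.80 (from -1.04 to 1.04). The arginine transporter Slc7a2 was at 3.67 and 3.72, with an interval from -1.64 to 1.54, and the costimulatory ligand Tnfsf9 at 4.33 and 4.39, with an interval from -1.58 to 1.46. The intervals allow a difference of over 1 log2 unit for the last 3 of these genes, so they do not show equal changes. Of 15 reference genes limma called none, beside 5.40% of all genes, and their median difference was 0.05. At an unadjusted p under 0.05, 0 of them passed, beside 3155 of all 22445 genes.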

How the data were processed

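RNA of 28 macrophage cultures was hybridised to 1-colour arrays, 1 deposited scanner file per sample. Per the file headers the deposited processed intensity is the Cy3 signal after background subtraction by Agilent Feature Extraction, which puts a surrogate value on spots close to background, so dim values act as bounds. The submitters' processing notes name Feature Extraction 9.5.1. The series value table was not used.

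Control spots and spots with an outlier mark were left out, the intensity was put on the log2 scale minus the array's 75th percentile, spots of a probe were averaged, and a gene was represented by its brightest probe. Names came from 22951 accessions, 6659 symbols and 3109 synonyms matched to the gene table and 8455 array names, for 41174 probes. A gene was tested where its probe was well above background on at least 3 of 28 arrays. limma 3.58.1 in R 4.3.3 fitted 6 group means over the 28 arrays, with Benjamini-Hochberg adjustment over all genes tested. For a probe above background on no array of a group, "at least" folds compare the brighter group's mean with the higher of the dim probe's own value and the lowest signal well above background on each array. Scripts were tested on simulated data with independent noise and no experiment or slide effect. Of 21887 genes, 100 were changed by 2 log2 units, of which 37% were recovered, and 100 by 1 unit, of which 8% were. Only 47 genes were called there, far fewer than in these data, so the shares are not the recovery here. Genes not called may differ.

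The letters in the sample titles name experiments. Same-letter arrays deviated together from their group means, at r = 0.155, 0.186, 0.42 and 0.729 for IL-4 (A, B, C and G) and 0.617, 0.281 and 0.637 for IFN-γ (E, F and G). The letters were taken to pair the samples for the LPS change of each experiment and for the letter blocks. The main fit did not use the pairing. IL-4 arrays A and B share slides with the IL-4 with LPS arrays B and A (r = 0.482 and 0.394), and deviated more with these than with the arrays of their own letter. Nothing states separate animals per array, so p-values measure the spread between pooled cultures. The number of arrays limits the precision.

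Genes named are the 12 largest differences each way among called genes separated by experiment, with some array well above background in every group. To these come the 6 largest each way among called genes with a group not above background. Also named are up to 4 called members and 2 with the highest p for each list, and up to 4 for each response class. The rest are 26 genes known for these cytokines or LPS. The members, lists and alternatives were chosen with earlier results of these data known. The alternatives were blocks for experiment letter, slide and scan day, the 14 arrays alone, median and quantile scaling, normexp, array weights, filters on dim genes, the mean of a gene's probes, outlier spots kept, leaving out arrays or experiments, and 3 chosen after seeing the data (without experiments A and B, slide pairs as a block, and dim values raised to the lowest signal well above background). Results on a few items are not reported here.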

Additional observations from a re-analysis of the deposited data

Results flagged for a closer look

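For 16 genes the LPS change was called after both primings with opposite signs, and limma's contrast tested that difference. In 12 of them LPS lowered the level after IL-4 and raised it after IFN-γ. The transcription factors among these were Egr2 (a difference of -4.70, from -2.35 after IL-4 and 2.35 after IFN-γ), Irf4 (-4.29, from -2.35 and 1.94) and Bhlhe40 (-2.31, from -0.96 and 1.35), and the cytokine signalling inhibitor Socs5 gave -2.68, from -2.18 and 0.51. The differences were -3.47 for Fam43a, -2.86 for Ppp1r12b, -2.62 for Rtl5, -2.61 for Rims3, -2.10 for Abi2, -1.88 for Gucd1, -1.69 for Wdfy2 and -1.47 for Gstt3. In the other 4 genes LPS raised the level after IL-4 and lowered it after IFN-γ: Cd79b differed by 2.87, Arv1 by 1.23, 1810059H22Rik by 3.33 and 1190001M18Rik by 3.57. For 1810059H22Rik and 1190001M18Rik some group had no array well above background, so their differences rest in part on background values. The Arv1 call was lost on the 14 arrays alone (adjusted p = 0.0837), with median scaling (0.282) and with normexp (0.54, adjusted p = 0.425). Normexp also ended the Ppp1r12b call (adjusted p = 0.0574), and the other Ppp1r12b probes gave -2.46, -1.44 and 0.07.

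Single arrays stood apart from the other 3 of their group, by Dixon's ratio, in 4 of the 108 groups examined over 54 genes, where chance alone would mark about 1 in 20. Cnr2 was at -1.50 in the IL-4 with LPS array of experiment B, against -4.06 to -3.67 in the others. Cd40 was at 7.20 in the IL-4 with LPS array of experiment C, against 6.64 to 6.68. Il10 was at -2.97 in the IL-4 array of experiment C, against -2.53 to -2.50, and Cxcl11 at -8.15 in the IL-4 array of experiment G, below background, against -7.54 to -7.42.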

How the results depend on the processing

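The 1212 genes called in the difference of differences were 719 on the 14 arrays alone and, on those arrays, 1220 with the experiment letter as a replicate block (894 shared with the 1212) and 1881 with it as a random block. They were 3369 with the slide and 2438 with the scan day as a block, 709 with median scaling, 466 with normexp, 3593 with array weights, and 776 without experiments A and B. The share of calls that were higher after IL-4 was 65.8%, 85.0% with normexp, whose median difference over all genes was -0.84, and 49.1% with array weights. Leaving out 1 array, 1 experiment or experiments A and B gave 733 to 1325 calls for the difference, 1397 to 2851 for the LPS change after IFN-γ, 4425 to 6723 before LPS and 4000 to 6238 after it. For the LPS change after IL-4 the count was 11591 with the slide as a block, 3614 with normexp and 4526 without experiments A and B. For the LPS change after IFN-γ it was 4093 with the random block, 6951 with the slide, 5206 with the scan day, 4182 with slide pairs, 1578 on the 14 arrays, 1394 with median scaling, 878 with normexp and 7300 with array weights. The replicate block on the 14 arrays gave 3553 calls between IL-4 and IFN-γ before LPS and 2295 after it, normexp 3098 and 2545, and array weights 12785 and 10653. With median scaling 27.6% of the calls before LPS and 25.3% of those after were higher with IL-4, against 53.3% and 54.4%. Beyond the changes given in the report, Epb41l1, Sema6d and Unc5b, called genes named by the rule, were not called on the 14 arrays, without the replicate block (adjusted p = 0.182, 0.152 and 0.127) or with it (0.0891, 0.0634 and 0.0839). Normexp reversed BM939341 (-0.1286) and Tnnt2 (-0.08636), both close to background, and turned the sign of 67 called genes. Causes were not tested. In signal over background, 108 of the 1212 genes had a group in which no array was well above background.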

Other observations

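Genes outside the lists with a large difference and some array well above background in every group included Nudt17 and the myosin kinase Mylk. Nudt17 differed by 4.60 (2.79, adjusted p = 0.104 with normexp). Mylk was at -5.21, -4.78, -4.21 and -4.98 with IL-4 and -2.21, -1.71, -0.56 and -2.15 with IL-4 and LPS, and at -5.89, -5.39 and -6.68 with IFN-γ and -5.76, -5.96 and -6.49 with IFN-γ and LPS. Its difference of 3.22 was 2.06 with a gene's probes averaged (adjusted p = 0.113) and 0.16 with normexp (adjusted p = 0.892). The other Mylk probes gave 3.05 and -0.09 (unadjusted p = 5.66e-06 and 0.952).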
